A study of Homo sapiens with 6 samples.

Results

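The SLC38 genes encode sodium-coupled neutral amino acid transporters, which carry glutamine and other small neutral amino acids across the plasma membrane or the lysosomal membrane. The 8 genes described here were chosen by name and are SLC38A1, SLC38A2, SLC38A3, SLC38A5, SLC38A6, SLC38A7, SLC38A9 and SLC38A10, out of 62710 genes in the deposited table. All 8 passed the filter on low counts and were among the 16753 genes tested. They were measured in HCT116, an established human colon cancer cell line, in 3 libraries of cells carrying a scrambled control (sh-NC) and 3 libraries of cells carrying a short hairpin RNA against IGF2BP3 (sh-IGF2BP3). Per the methods of the study, both lines were made by lentiviral infection and selected with puromycin, and the knockdown used 1 hairpin sequence. The labels do not say whether the replicates were separate cultures, so p-values measure the spread between these libraries, which may be technical.

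Cells use glutamine as a source of nitrogen and carbon for nucleotides, glutathione and other amino acids, and proliferating cancer cells take it up in large amounts. Members of the SLC38 family are commonly divided by what they carry and where they sit. System A carriers (SLC38A1, SLC38A2 and SLC38A4) take up small neutral amino acids with sodium, system N carriers (SLC38A3 and SLC38A5) move glutamine, asparagine and histidine with sodium in exchange for protons, and SLC38A7 and SLC38A9 act at the lysosome. IGF2BP3 is an RNA-binding protein known for binding messenger RNAs, many of them carrying N6-methyladenosine, and for prolonging their stability. The comparison asks which transcripts differ in level when IGF2BP3 is reduced.

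Library totals ran from 16146718 to 23576469 counts, and 3 counts, the limit that a count of 0 allows, corresponded to 0.127 to 0.186 CPM, the count scaled to the total of its library. All other CPM values here are scaled to totals adjusted by the TMM factors, which lay between 0.949 and 1.10. Intervals and limits of this kind cover counting error only. IGF2BP3 itself was at 90.3, 84.1 and 70.3 CPM in the sh-NC libraries and 60.2, 52.3 and 55.8 CPM in the sh-IGF2BP3 libraries, a log2 fold change of −0.54 ± 0.18 (SE) with an adjusted p of 0.126 in edgeR's quasi-likelihood test. The groups did not overlap. Across the 96.9% of tested genes with a known GC content, the log2 fold change followed the GC content of the transcript (Spearman's rho = 0.611, a description across genes that are not independent), from a median of −0.34 in the eighth of genes with the lowest GC content to 0.56 in the eighth with the highest. Values are therefore also given after the trend of each library with GC content and gene length had been removed. On that scale rho was 0.0239, and IGF2BP3 stood at −0.22 ± 0.19 (SE; edgeR adjusted p = 0.680) with groups that overlapped. Of 8 markers of colon epithelium, 7 were tested and KRT8 and EPCAM were among the detected, while VIL1 had 9 counts in all 6 libraries. At an unadjusted edgeR p below 0.05, 3 of the 7 were higher in sh-IGF2BP3 libraries (log2 fold changes of 0.80 for KRT19, 0.59 for CDX2 and 0.51 for KRT8) and 1 was lower (CDH1, −0.47, with groups that did not overlap), beside 13.6% and 8.54% of all tested genes. Once the trends were removed these stood at 0.28, 0.30, 0.33 and −0.40, and their part in the values of the SLC38 genes was not tested. Of 10 markers of other cell types, 3 were tested (COL1A1, with means of 35.2 CPM in sh-NC and 41.1 CPM in sh-IGF2BP3 libraries, and PECAM1 and VWF with group means under 2 CPM), and the defining immune and fibroblast genes PTPRC, CD3E and DCN had 1, 2 and 3 counts in all 6 libraries. In bulk RNA, fewer cells of a type and less RNA per cell cannot be told apart.

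None of the 8 genes passed both thresholds in edgeR, an adjusted p below 0.05 and a change of more than 1.5 fold, and neither did any other gene (0% of 16753). At an unadjusted p below 0.05 in edgeR, 2 of the 8 were lower in sh-IGF2BP3 libraries, SLC38A9 and SLC38A1, where 8.54% of all tested genes were, and 2 were higher, SLC38A10 and SLC38A5, where 13.6% were. The groups did not overlap in CPM for 2 lower genes, SLC38A9 and SLC38A1 (11.0% of all tested genes), and for 1 higher gene, SLC38A10 (13.2%). DESeq2 placed 1 of the 8, SLC38A9, past both thresholds as lower (1.02% of the genes it tested) and 0 as higher (4.21%). With the GC and length trends removed, 0 of the 8 were lower at an unadjusted edgeR p below 0.05 (3.59% of all tested genes) and 0 were higher (6.88%). The median log2 fold change of the 8 was −0.29 as measured, beside −0.0145 over all tested genes, and −0.11 with the trends removed, beside 0.0104. Without sh-IGF2BP3 2 the median of the 8 as measured was −0.091.

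**Figure D1:**
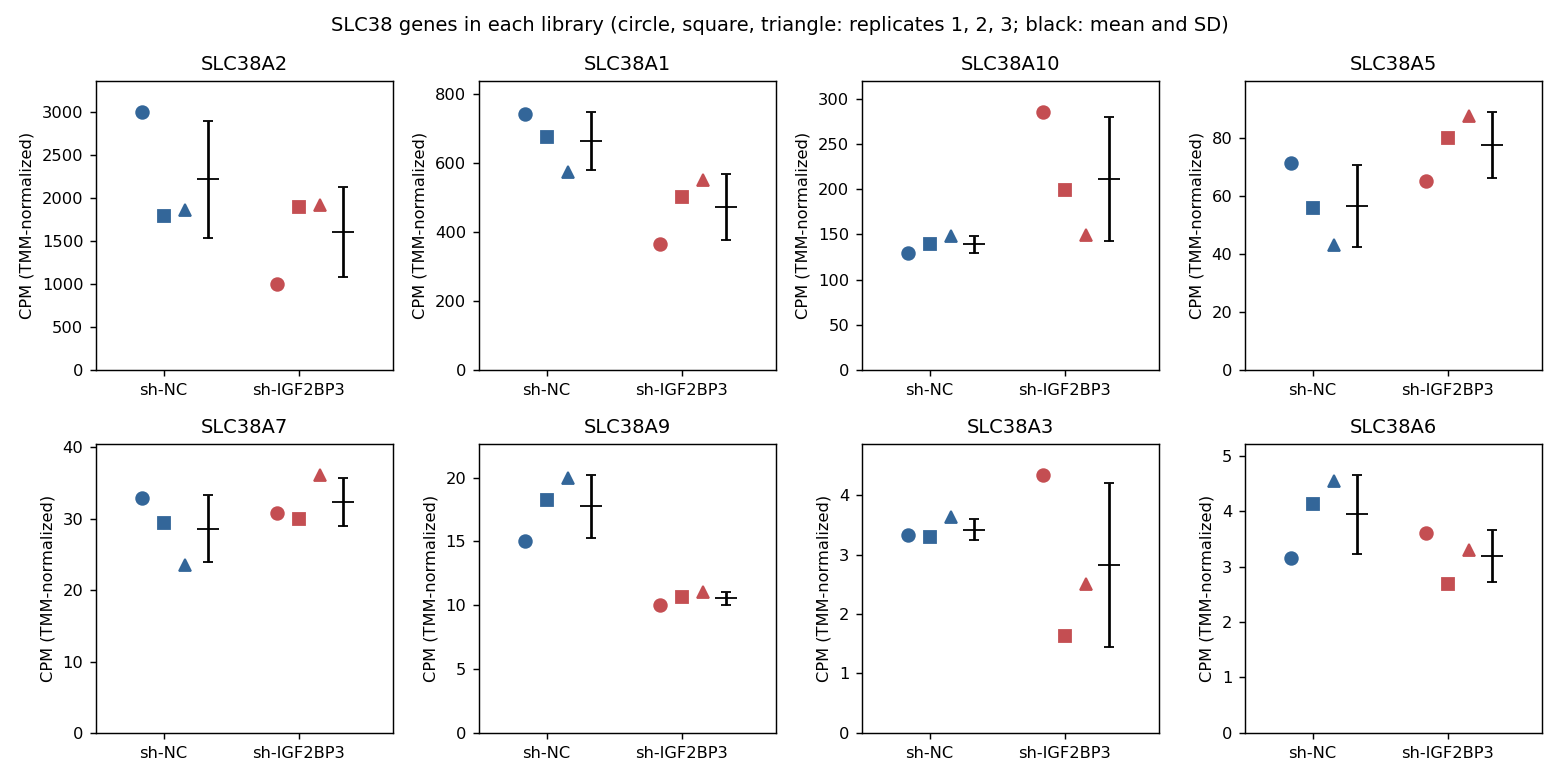
Level of each SLC38 gene in each library, in CPM after TMM normalization (vertical axes start at 0 and differ between panels), with sh-NC in blue, sh-IGF2BP3 in red, symbols for replicates 1 to 3, and the group mean and SD in black. The libraries of the 2 groups stand apart for SLC38A9, SLC38A1 and SLC38A10 and overlap for the other 5 genes.

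By deposited FPKM, which divides counts by 1 length per gene, SLC38A2 was by far the most abundant member. That length was greater than the principal transcript of each member, for example 5518 against 1688 bases for SLC38A6 and 7907 against 2708 for SLC38A10. The order and ranges given here depend on that length. Its level averaged 292 FPKM over the 6 libraries (range 155 to 442), above 99.6% of tested genes. SLC38A1 followed at 56.6 FPKM (36.5 to 71.0), above 96.9% of tested genes. SLC38A10 at 22.1 FPKM (15.7 to 36.1) and SLC38A5 at 16.5 FPKM (11.7 to 21.0) came next, and their ranges overlapped, with SLC38A5 above SLC38A10 in sh-NC 1 and sh-IGF2BP3 3. SLC38A7 at 4.55 FPKM (3.87 to 5.26) was near the middle of the tested genes, above 55.2% of them. SLC38A9 averaged 1.62 FPKM (1.14 to 2.47), above 34.4% of tested genes. The lowest members were SLC38A3 at 0.793 FPKM (0.390 to 1.10) and SLC38A6 at 0.652 FPKM (0.460 to 0.901). Their ranges overlapped, with SLC38A6 above SLC38A3 in sh-IGF2BP3 2 alone. The ranges of the other neighbours in this order did not overlap.

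**Figure D2:**
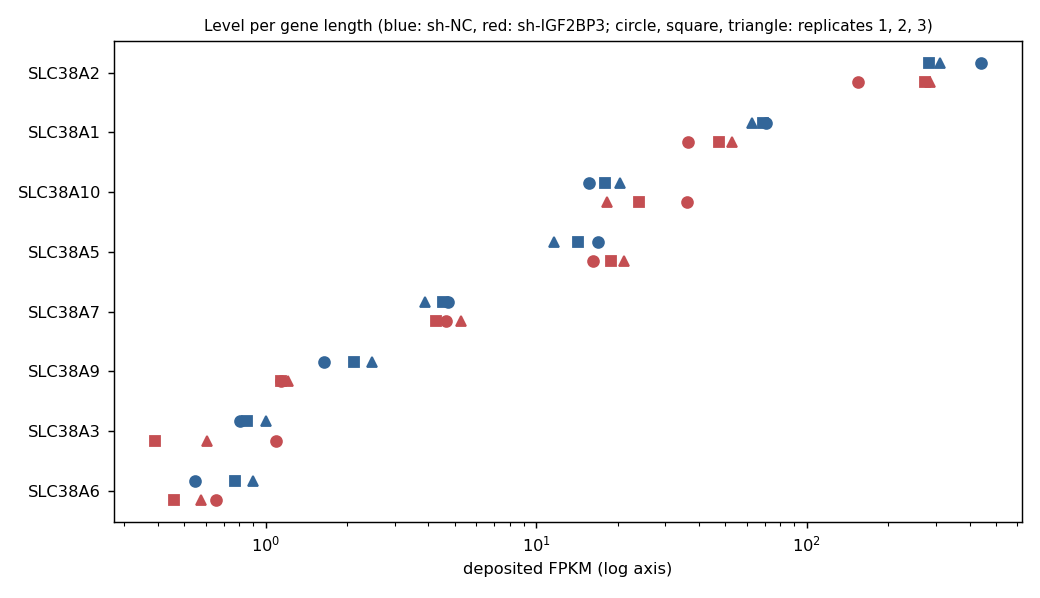
Deposited FPKM of the 8 SLC38 genes in each library on a log axis, ordered by their mean in sh-NC libraries, with sh-NC in blue, sh-IGF2BP3 in red and symbols for replicates 1 to 3. SLC38A2 lies between 155 and 442 FPKM, while SLC38A3 and SLC38A6 lie at or below 1.10 FPKM.

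SLC38A2 made up 79.9%, 72% and 75.2% of the summed FPKM of the 8 genes in sh-NC libraries 1, 2 and 3, and 61.6%, 74% and 74% in sh-IGF2BP3 libraries 1, 2 and 3. All 8 together took 0.383%, 0.279% and 0.292% of the counts in sh-NC libraries and 0.177%, 0.257% and 0.267% in sh-IGF2BP3 libraries. The first replicate of each group was the highest and the lowest of the 6. On the TMM-normalized scale the groups overlapped, with sums of 3994, 2716 and 2673 CPM in sh-NC and 1769, 2716 and 2762 CPM in sh-IGF2BP3 libraries. The other family genes were nearly silent. SLC38A4, the remaining system A carrier, had 46 counts over the 6 libraries, SLC38A8 had 8 and SLC38A11 had 0, which allows up to 0.186 CPM of the unadjusted total in the shallowest library. These 3 genes were not tested.

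Among the system A carriers, SLC38A1 (ENSG00000111371; GRCh38 chromosome 12, 46183063 to 46270017, minus strand) was lower in every sh-IGF2BP3 library than in every sh-NC library. The sh-NC libraries held 741, 674 and 574 CPM, and the sh-IGF2BP3 libraries 365, 501 and 549.7 CPM. The closest pair across the groups was the third replicate of each, and the lowest library was sh-IGF2BP3 1. The means were 663 ± 84.4 and 472 ± 95.8 CPM (SD, n = 3 each; exact permutation test, two-sided, p = 0.1, the smallest that 3 against 3 can give). The log2 fold change was −0.49 ± 0.21 (SE), with an adjusted p of 0.183 in edgeR and 0.150 in DESeq2. With the GC and length trends removed, it was −0.19 ± 0.21 and the groups overlapped.

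SLC38A2 (ENSG00000134294; chromosome 12, 46358188 to 46372773, minus strand), the neighbouring gene and a carrier known to be induced when amino acids run short, varied most at the first replicate of each group. It was at 2998, 1792 and 1856 CPM in sh-NC and 1005, 1890.0 and 1922 CPM in sh-IGF2BP3 libraries. The highest of the 6 was sh-NC 1 and the lowest sh-IGF2BP3 1, and the other 4 libraries lay within 1792 to 1922 CPM. The groups overlapped (2216 ± 678 against 1606 ± 521 CPM, SD, n = 3 each; exact permutation test, two-sided, p = 0.6). The log2 fold change was −0.46 ± 0.27 (SE; edgeR adjusted p = 0.316), and it was −0.18 without sh-NC 1 and −0.21 without sh-IGF2BP3 1. With the trends removed it was −0.19 ± 0.30, and sh-NC 1 and sh-IGF2BP3 1 still deviated from the mean of the 6 libraries by 0.714 and −0.518 on the log2 scale. SLC38A2-AS1, an antisense transcript that overlaps the start of SLC38A2, had 37, 11 and 8 counts in sh-NC and 24, 30 and 25 in sh-IGF2BP3 libraries. Whether the counting used strand is not given in the sources used here, so reads of the overlap cannot be assigned with certainty.

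SLC38A1 and SLC38A2 shared their highest library (sh-NC 1) and their lowest (sh-IGF2BP3 1), and across the 6 libraries their log2 CPM had a Pearson correlation of 0.894, given as a description over libraries that include the group difference. Another pair, SLC38A5 and SLC38A7, had 0.901, and SLC38A1 and SLC38A10 had −0.96. The promoters of SLC38A1 and SLC38A2 are shown because these neighbouring genes varied together. The windows of 250 bases before to 50 after the annotated start site come from RefSeq on GRCh38.p14, written 5′ to 3′ on the minus strand, and capitals mark matches on either strand to the GC box GGGCGG or the C/EBP-ATF element TGATGNAA, a motif through which amino acid response genes are known to be induced.
SLC38A1, chr12:46266467-46266766, minus strand: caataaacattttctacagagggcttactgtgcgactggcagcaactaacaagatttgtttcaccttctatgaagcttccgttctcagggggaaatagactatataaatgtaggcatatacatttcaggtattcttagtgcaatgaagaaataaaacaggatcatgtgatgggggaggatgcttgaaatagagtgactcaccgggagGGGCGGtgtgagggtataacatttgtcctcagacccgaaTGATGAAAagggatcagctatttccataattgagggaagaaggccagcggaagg
SLC38A2, chr12:46372724-46373023, minus strand: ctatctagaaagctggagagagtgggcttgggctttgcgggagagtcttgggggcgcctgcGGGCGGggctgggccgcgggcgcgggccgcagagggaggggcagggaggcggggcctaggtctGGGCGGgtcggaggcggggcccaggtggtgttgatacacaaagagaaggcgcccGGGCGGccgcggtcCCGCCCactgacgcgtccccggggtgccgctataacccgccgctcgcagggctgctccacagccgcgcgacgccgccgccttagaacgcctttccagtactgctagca
The SLC38A1 window held TGATGNAA beginning 4 bases before its start site and spanning it, and GGGCGG beginning 43 bases before it. TGATGNAA was present in 3.62% of 35116 RefSeq promoter windows of this length. The window of a second SLC38A1 start site had neither motif. The SLC38A2 window held 4 copies of GGGCGG, at −189, −126, −72 and −58, a motif present in 45.0% of windows. Its GC content was 72.0%, against 43.3% for the SLC38A1 window shown and 62.3% for that of the second SLC38A1 start site. The SLC38A2 window held no TGATGNAA, and neither window held the E-box CACGTG (7.26% of windows) or the cyclic AMP element TGACGTCA (1.85%). This says only that these letters were not in these windows, and sequence outside the promoter windows was not searched for these motifs.

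Of the system N carriers, SLC38A5 was the more abundant by deposited FPKM. SLC38A5 (ENSG00000017483; chromosome X, 48458537 to 48470260, minus strand) was at 71.2, 55.9 and 43.0 CPM in sh-NC and 65.0, 79.9 and 87.4 CPM in sh-IGF2BP3 libraries. The groups overlapped, with sh-NC 1 above sh-IGF2BP3 1. The means were 56.7 ± 14.1 and 77.4 ± 11.4 CPM (SD, n = 3 each; exact permutation test, two-sided, p = 0.2), and the log2 fold change was 0.45 ± 0.21 (SE; edgeR adjusted p = 0.223). Without sh-NC 1 it was 0.65, and SLC38A5 then passed both thresholds (edgeR adjusted p = 0.0401), in a fit in which 1739 genes were called higher and 985 lower. Without sh-NC 3 the log2 fold change was 0.27 (edgeR adjusted p = 0.643), and without sh-IGF2BP3 3 it was 0.33 (edgeR adjusted p = 0.422). With the GC and length trends removed it was 0.19 ± 0.22. On that scale it ran from 0.0082 without sh-IGF2BP3 3 to 0.38 without sh-IGF2BP3 1.

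SLC38A3 (ENSG00000188338; chromosome 3, 50205246 to 50221486, plus strand) rested on 355 counts in all. It had 59, 80 and 71 counts in sh-NC libraries and 76, 25 and 44 in sh-IGF2BP3 libraries, or 3.33, 3.30 and 3.63 CPM against 4.35, 1.64 and 2.50 CPM. The sh-NC libraries lay close together, and the sh-IGF2BP3 libraries held both the highest and the lowest value. The log2 fold change was −0.27 ± 0.37 (SE; edgeR adjusted p = 0.692), and it was 0.0075 without sh-IGF2BP3 2 and −0.72 without sh-IGF2BP3 1. SLC38A3 was the member whose value moved away from 0 when the GC and length trends were removed, to −0.65 ± 0.33 (edgeR adjusted p = 0.517). On that scale its groups did not overlap, where 6.69% of all tested genes were lower without overlap. With the trends removed it was −0.37 without sh-IGF2BP3 2 and −0.94 without sh-IGF2BP3 1.

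At the lysosome, SLC38A9 (ENSG00000177058; chromosome 5, 55625845 to 55773194, minus strand), the arginine sensor that signals amino acid supply to mTORC1 through the Ragulator and Rag proteins, had the smallest p of the 8 members. It was at 15.1, 18.3 and 19.9 CPM in sh-NC and 10.01, 10.7 and 11.0 CPM in sh-IGF2BP3 libraries. The sh-IGF2BP3 libraries lay close together, and all lay below the lowest sh-NC library. The means were 17.8 ± 2.47 and 10.6 ± 0.513 CPM (SD, n = 3 each), a ratio of 0.595 (exact permutation test, two-sided, p = 0.1). The log2 fold change was −0.75 ± 0.23 (SE). Its adjusted p was 0.116 in edgeR, in which its unadjusted p of 0.00481 ranked at place 692 of all tested genes, and 0.0375 in DESeq2. Without sh-NC 1, edgeR gave −0.85 with an adjusted p of 0.0196, in a fit in which 1739 genes were called higher and 985 lower. Leaving out each other library gave −0.79 to −0.68, with edgeR adjusted p from 0.0979 to 0.426.

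The longest SLC38A9 transcript has a GC content of 36.0%, the lowest of the 8 members, and among the 2030 genes of its GC eighth 10.7% had a lower log2 fold change. The trend of each library, read at the GC content and length of SLC38A9, was −0.00218, 0.272 and 0.331 in sh-NC and −0.375, −0.156 and −0.0709 in sh-IGF2BP3 libraries on the log2 scale. With it removed, SLC38A9 stood at 0.144, 0.145 and 0.211 in sh-NC and −0.0684, −0.197 and −0.235 in sh-IGF2BP3 libraries around the mean of the 6. All 3 sh-NC libraries still lay above all 3 sh-IGF2BP3 libraries, by a log2 fold change of −0.34 ± 0.17 (SE; edgeR adjusted p = 0.508). The principal SLC38A9 transcript is shorter, with a GC content of 43.1%, and with trends in the properties of principal transcripts removed the log2 fold change was −0.55 (edgeR adjusted p = 0.415). The size of the difference therefore depended on which transcript was taken, while its direction was the same in all 26 alternatives run. DDX4 overlaps SLC38A9 on the opposite strand and had 0 to 4 counts in a library.

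SLC38A7 (ENSG00000103042; chromosome 16, 58665109 to 58684770, minus strand), a lysosomal exporter of glutamine and asparagine, was at 32.9, 29.5 and 23.6 CPM in sh-NC and 30.8, 30.0 and 36.2 CPM in sh-IGF2BP3 libraries. The groups overlapped (28.6 ± 4.73 against 32.3 ± 3.36 CPM, SD, n = 3 each; exact permutation test, two-sided, p = 0.4). The log2 fold change was 0.17 ± 0.20 as measured (SE; edgeR adjusted p = 0.631) and −0.041 ± 0.19 with the trends removed. As measured, it was 0.031 without sh-NC 3, 0.069 without sh-IGF2BP3 3 and 0.29 without sh-NC 1.

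Of the members with a less settled role, SLC38A10 (ENSG00000157637; chromosome 17, 81244811 to 81295547, minus strand) was the highest in sh-IGF2BP3 libraries relative to sh-NC. It was at 129.5, 139 and 148 CPM in sh-NC and 285, 199.7 and 149.9 CPM in sh-IGF2BP3 libraries. The sh-NC libraries were close together, the sh-IGF2BP3 libraries spread widely, and sh-IGF2BP3 3 lay only just above sh-NC 3. In FPKM the groups overlapped (15.7 to 20.5 against 18.3 to 36.1). The means were 139 ± 9.38 and 212 ± 68.5 CPM (SD, n = 3 each; exact permutation test, two-sided, p = 0.1), with a log2 fold change of 0.61 ± 0.22 (SE; adjusted p = 0.142 in edgeR and 0.0835 in DESeq2). Without sh-IGF2BP3 1 it was 0.33. The GC content of SLC38A10 is 64.3%, the highest of the 8. With the GC and length trends removed its log2 fold change was 0.11 ± 0.16 and the groups overlapped. On that scale it ran from 0.028 without sh-NC 1 to 0.17 without sh-IGF2BP3 3.

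SLC38A6 (ENSG00000139974; chromosome 14, 60981114 to 61114316, plus strand) rested on 407 counts, with 3.16, 4.13 and 4.55 CPM in sh-NC and 3.60, 2.68 and 3.29 CPM in sh-IGF2BP3 libraries. Its groups overlapped and its log2 fold change was −0.31 ± 0.32 (SE; edgeR adjusted p = 0.587), or −0.021 ± 0.28 with the trends removed. As measured, it ranged from −0.43 to −0.19 when 1 library was left out, the latter without sh-IGF2BP3 2. TRMT5, a transfer RNA methyltransferase gene on the opposite strand, averaged 36.6 CPM over the whole gene. It reaches to 60981170, just past the start of SLC38A6 at 60981114, so that reads of this short overlap could be shared.

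The promoters of SLC38A9 and SLC38A10 are shown because these members had the smallest p in each direction. They come from the same RefSeq windows, with matches to GGGCGG on either strand in capitals.
SLC38A9, chr5:55712286-55712585, minus strand: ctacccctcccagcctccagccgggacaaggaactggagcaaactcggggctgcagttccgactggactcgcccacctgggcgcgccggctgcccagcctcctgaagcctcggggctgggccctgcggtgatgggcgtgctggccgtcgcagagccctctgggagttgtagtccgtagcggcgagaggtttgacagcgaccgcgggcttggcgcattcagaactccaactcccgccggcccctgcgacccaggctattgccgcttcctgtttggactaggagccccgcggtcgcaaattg
SLC38A10, chr17:81295258-81295557, minus strand: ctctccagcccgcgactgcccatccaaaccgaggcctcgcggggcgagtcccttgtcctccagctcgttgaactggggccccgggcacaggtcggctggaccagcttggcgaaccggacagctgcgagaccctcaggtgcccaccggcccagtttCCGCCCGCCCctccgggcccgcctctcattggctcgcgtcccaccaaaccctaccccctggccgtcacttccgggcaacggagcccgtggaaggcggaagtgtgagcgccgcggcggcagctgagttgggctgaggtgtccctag
The SLC38A9 window held none of the 4 motifs, and that of SLC38A10 held overlapping copies of GGGCGG on the opposite strand at −95 and −91. The GC content of these windows was 67.7% and 70.3%, and those of the other annotated SLC38A9 start sites had 37.3% and 66.7% and held none of the motifs either. RefSeq windows were matched for 7 of the 8 members. Among the other members, CACGTG occurred for SLC38A5 at −206 and for SLC38A7 at 15 bases after its start site.

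**Figure D3:**
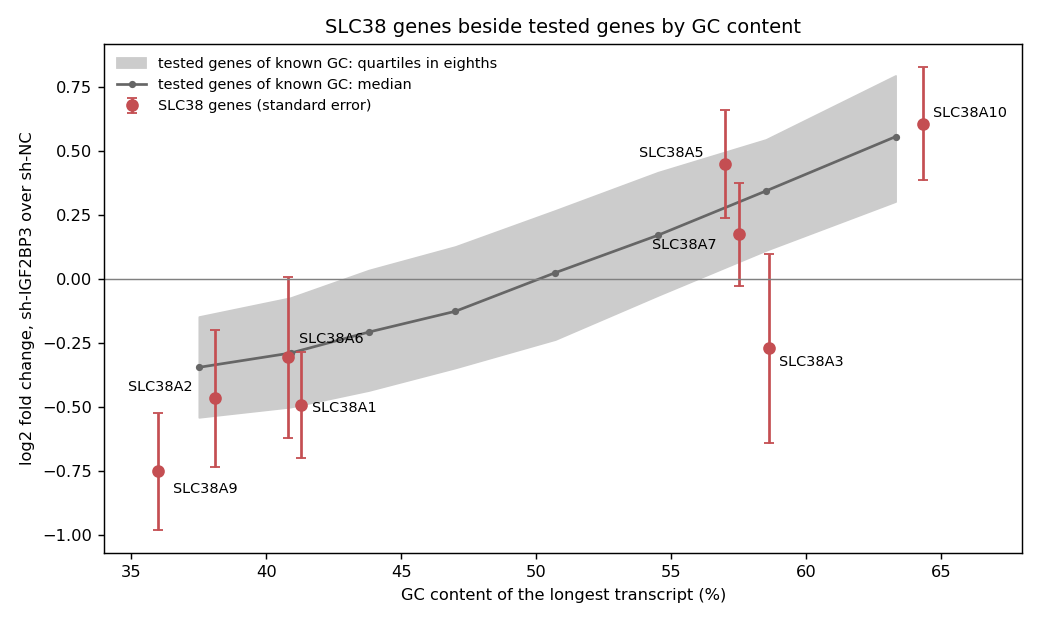
Log2 fold change (sh-IGF2BP3 over sh-NC, vertical axis) of the 8 SLC38 genes in red, with standard errors, by GC content of the longest transcript in percent. The line and band give the median and quartiles of the 96.9% of tested genes whose GC content was known, in eighths, from −0.34 at the lowest to 0.56 at the highest. SLC38A9 and SLC38A3 lie below the lower quartile of their eighths.

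By GC content the 8 members fell into separate ranges, SLC38A9, SLC38A2, SLC38A6 and SLC38A1 between 36.0% and 41.3%, and SLC38A5, SLC38A7, SLC38A3 and SLC38A10 between 57.0% and 64.3%. The 4 with low GC content all had negative log2 fold changes, and of the 4 with high GC content all but SLC38A3 had positive ones. Across the 8, Spearman's rho between GC content and log2 fold change was 0.833, a description over 8 genes measured in the same libraries. Within their own GC eighths, SLC38A3 had a higher log2 fold change than 7.24% of genes and SLC38A9 than 10.7%, while the other 6 lay between 25.6% and 63.0%.

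**Figure D4:**
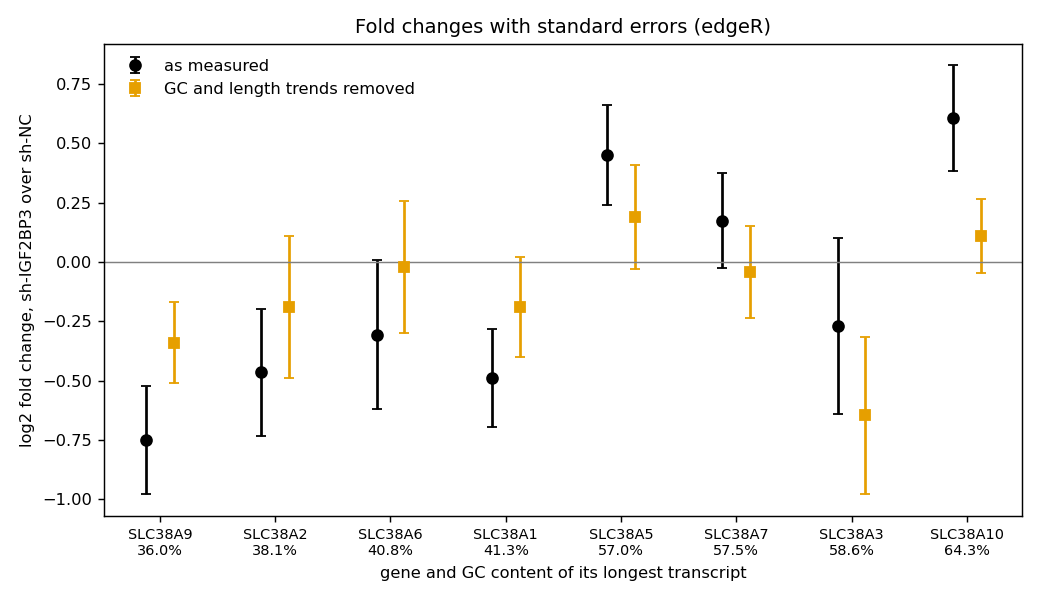
Log2 fold change (sh-IGF2BP3 over sh-NC) with its standard error for each SLC38 gene, in order of GC content, as measured (black circles) and with the GC and length trends of each library removed (orange squares). SLC38A9 goes from −0.75 to −0.34 and SLC38A10 from 0.61 to 0.11, while SLC38A3 goes from −0.27 to −0.65.

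The libraries did not deviate alike for all members. In sh-IGF2BP3 1, SLC38A2 and SLC38A1 stood at −0.857 and −0.601 and SLC38A10 at 0.76 around the mean of the 6 libraries on the log2 scale. With the trends removed, SLC38A10 was at 0.183 in that library, while SLC38A2 and SLC38A1 were at −0.518 and −0.329. The lowest single deviation on that scale was SLC38A3 in sh-IGF2BP3 2, at −1.01, where it had 25 counts.

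**Figure D5:**
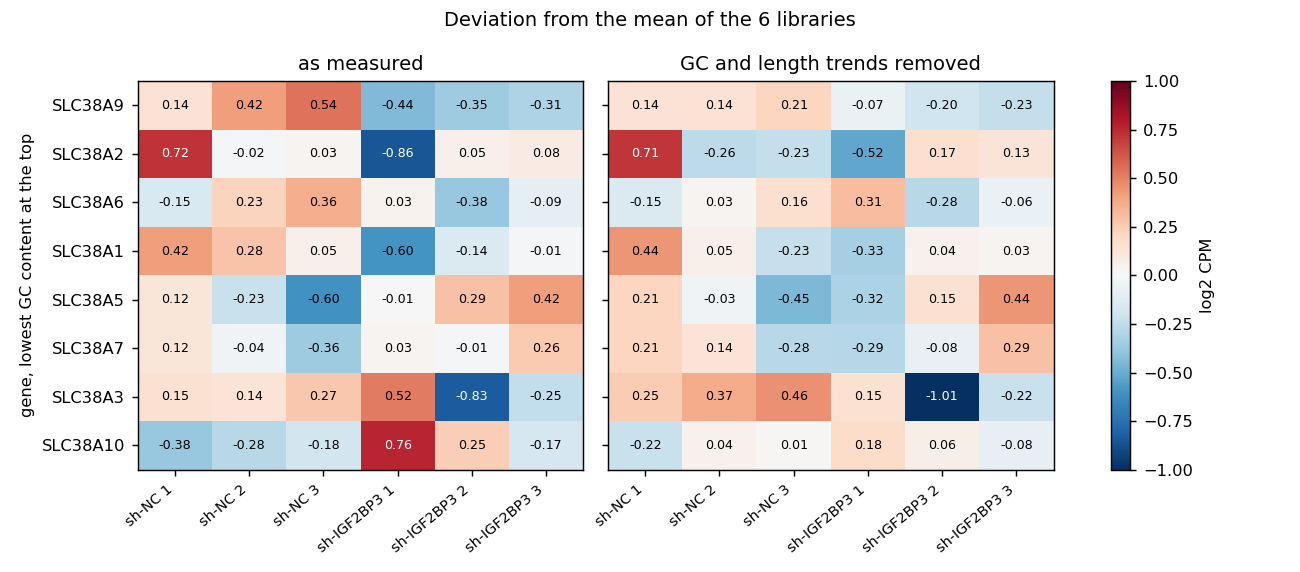
Deviation of each SLC38 gene from its mean over the 6 libraries in log2 CPM (blue below, red above), as measured and with the GC and length trends removed, with genes ordered by GC content. SLC38A9 keeps the same sign within each group on both scales, and SLC38A2 stands apart in the first replicate of each group, at 0.72 and −0.86 as measured.

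By the Pearson correlation of log2 CPM over the 6 libraries, among 9796 genes with a mean of at least 10 CPM, the genes most like SLC38A9 were PLEKHA1 and CLIC4 (both r = 0.995) and ENPP4 (0.993), and 6.12% of those genes had an r of at least 0.9. Their GC contents were 39.4%, 37.2% and 34.4%. The genes most like SLC38A10 were DALRD3 (0.999), EVPL and BAHCC1 (both 0.994), with GC contents of 59.5%, 65.0% and 65.5%, and 4.63% of genes reached 0.9. NUS1 (0.995), ZNF557 (0.994) and MTPAP (0.992) were most like SLC38A2, for which 2.95% of genes reached 0.9.

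Transcript features used by neither the rule nor the count test were read from the GENCODE 29 principal transcripts. The letters GGACT, a common core of N6-methyladenosine sites, were densest in SLC38A9, at 2.05 per kilobase from 6 copies, above 91.3% of 13102 tested genes. SLC38A1 had 11 copies, or 1.36 per kilobase, above 72.3%. SLC38A2 had 1 copy in 4888 bases, or 0.205 per kilobase, above 8.9% of genes, and SLC38A10 had 0.369 per kilobase. SLC38A6, SLC38A5, SLC38A3 and SLC38A7 had 1.18, 1.13, 1.01 and 0.659 per kilobase. The median gene had 0.951. A match to these letters is not a measured methylation or a bound site.

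The hairpin used in the study is shown because its guide strand could pair with other transcripts through its seed, bases 2 to 8 from the 5′ end, in capitals in the guide and as the matching bases in the sense strand.
sh-IGF2BP3 sense strand: ggctcagggaaGAATTTAt
sh-IGF2BP3 guide strand, as its reverse complement: aTAAATTCttccctgagcc
SLC38A1 transcript around the match: agatgttaggtcGAATTTAaacagcacagt
Of the 8 members, SLC38A1 alone held the 7 bases that pair with the seed, once, from position 4665 of its principal transcript of 8066 bases. Such a match occurred in 49.5% of tested genes with transcripts of like length and in 23.4% of all. The longest run that any member shared with the 19 bases of the sense strand was 8 bases. The part of this match in the level of SLC38A1 was not tested.

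Of 17 listed genes for other carriers of neutral amino acids, 12 were tested, and 1 was higher and 0 lower at an unadjusted edgeR p below 0.05, beside 13.6% and 8.54% of all tested genes. That gene was SLC1A5, a sodium-dependent glutamine exchanger, with a log2 fold change of 0.45 as measured (edgeR adjusted p = 0.220) and −0.031 with the GC and length trends removed. The list's median was 0.16 as measured and −0.045 with the trends removed. Among 19 tested genes for enzymes that use or make glutamine and its products, 3 were lower and 1 higher at that threshold, with the same shares over all tested genes. The lower ones included ASNS, asparagine synthetase (−0.70), and PSAT1, a transaminase of serine synthesis (−0.48), and the higher one was PFAS, an enzyme of purine synthesis (0.47). The edgeR adjusted p of these named genes lay between 0.142 and 0.212. With the trends removed ASNS stood at −0.60, PSAT1 at −0.33 and PFAS at 0.21. The list's median was −0.026.

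The machinery through which SLC38A9 signals was measured in the same libraries. Of 37 tested genes of lysosomal amino acid sensing, 8 were higher and 5 lower at an unadjusted edgeR p below 0.05, beside 13.6% and 8.54% of all tested genes. The median log2 fold change was 0.10. The 4 with the smallest p were LAMTOR4 (1.01) and LAMTOR5 (0.82), subunits of the Ragulator complex on which SLC38A9 docks, KPTN (0.87), a subunit of the KICSTOR complex, and FNIP1 (−0.78), a partner of folliculin. None passed the adjusted p in edgeR, where these 4 lay between 0.103 and 0.112. DESeq2 called LAMTOR4, LAMTOR5 and KPTN higher and FNIP1 lower, where it called 4.21% of the genes it tested higher and 1.02% lower. With the GC and length trends removed, LAMTOR5 stood at 0.83, LAMTOR4 at 0.56, KPTN at 0.38 and FNIP1 at −0.44, and 3 genes of the list were higher and 2 lower at the same threshold, beside 6.88% and 3.59% of all tested genes. Of 7 other tested lysosomal amino acid carriers, 2 were higher, MFSD12, a cysteine carrier (0.57), and SLC66A1, a carrier of arginine and lysine (0.63), where 13.6% of all tested genes were, and 0 were lower. With the trends removed these stood at −0.035 and 0.035. Of 6 regulators of SLC38A2, 0 passed the unadjusted threshold in either direction. ATF4, the transcription factor of the amino acid response, stood at 0.37 (edgeR adjusted p = 0.317) and at 0.035 with the trends removed.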

How the data were processed

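RNA of 3 sh-NC and 3 sh-IGF2BP3 libraries of HCT116 cells was sequenced from TruSeq libraries. The authors deposited raw counts per gene and FPKM values for 62710 genes on GRCh38, and the submitters' processing notes name CASAVA. The aligner, the counter and the use of strand are not given in the sources used here. The deposited FPKM equalled the count divided by the library total and by 1 length per gene. Sample columns were matched to the labels by name. Counts were filtered with filterByExpr, normalized by TMM and tested with the edgeR quasi-likelihood test (R 4.3.3, edgeR 4.0.16), with Benjamini-Hochberg adjustment over 16753 genes. The thresholds were an adjusted p below 0.05 and a change of more than 1.5 fold and follow the methods of the study. Log2 CPM used a prior count of 2. Single values were compared by exact permutation tests over the 20 splits of 6 libraries, two-sided. GC and length trends were fitted in each library as splines (5 degrees of freedom) through the deviations of its genes from their means. GC content was that of the longest GENCODE 29 transcript, and length was the 1 length per gene behind the deposited FPKM. Alternatives were DESeq2 1.42.0, limma 3.58.1 on log2 FPKM, other normalizations and filters, the replicate number as a block, the removal of trends and each library left out. The trends of principal transcripts, DESeq2 with trends as normalization factors, and trends removed with a library left out were added after seeing the data. The scripts were tested on simulated data. The members, gene lists and tests were chosen with earlier results of these data known. The genes named are every member, the family genes outside the list, IGF2BP3, up to 4 genes with the smallest unadjusted p below 0.05 in each list of pathway genes, and the 3 genes most like SLC38A9, SLC38A10 and SLC38A2 across libraries. ATF4 and the marker genes named were chosen after their values were seen. The values of 1 gene that this rule names are not reported here.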

Additional observations from a re-analysis of the deposited data

How the results depend on the processing

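Of 204 values of the 8 genes under 26 alternatives, 190 kept their direction, 14 reversed and 3 passed both thresholds. SLC38A9, SLC38A5 and SLC38A10 reversed in none. DESeq2 called 1 member (SLC38A9) and edgeR without sh-NC 1 called 2 (SLC38A9 and SLC38A5), and with each other library left out 0, a range of 0 to 2. Over all genes, 0 were called higher and 0 lower by edgeR, 560 and 136 by DESeq2, 687 and 150 with no filter, 1739 and 985 when sh-NC 1 was left out, 214 and 14 when sh-IGF2BP3 3 was, and 29 and 5 by DESeq2 with GC and length trends as normalization factors; 3714 had an unadjusted edgeR p below 0.05. The cause of these differences was not tested.

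SLC38A7 reversed with the GC and length trends removed (−0.041), with the trends of principal transcripts removed (−0.016) and in DESeq2 with the trends as normalization factors (−0.042). With the trends removed and 1 library left out, SLC38A7 was at −0.18 without sh-NC 3, −0.0035 without sh-IGF2BP3 2 and −0.21 without sh-IGF2BP3 3, SLC38A6 was at 0.055, 0.11 and 0.021 without the same libraries, SLC38A1 was at 0.018 and SLC38A2 at 0.22 without sh-NC 1, and SLC38A2 was at 0.0075 without sh-IGF2BP3 1. SLC38A3 ran from −0.72 to 0.0075, the latter without sh-IGF2BP3 2, when each library was left out with no trend removed.

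The median of the 8 was −0.35 with upper-quartile normalization, −0.16 in limma on log2(FPKM + 1) with no filter, and −0.11, −0.13 and −0.12 with the trends removed, those of principal transcripts removed and DESeq2 with the trends. In limma with a minimum mean FPKM of 1, which left out SLC38A3 and SLC38A6, the median of the other 6 was −0.21 on log2(FPKM + 1) and −0.23 with 0.1 in place of 1. For all 8, leaving out each library gave −0.28 to −0.091 (−0.091 without sh-IGF2BP3 2), and −0.25 to 0.023 with the trends removed (0.023 without sh-NC 1 and −0.032 without sh-IGF2BP3 1).

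At an unadjusted p below 0.05, 1 member rather than 2 was higher in DESeq2, with RLE or upper-quartile normalization and when every library had to hold 10 counts or more (11.3% to 16.6% of all genes in these fits), 0 were in limma (5.29% to 12% of all genes), and 1 was higher and 1 lower with the length trend alone removed (11.9% and 6.86%). With the GC and length trends removed 0 were lower and 0 higher, also in DESeq2 with the trends (3.62% and 6.84% of all genes), and with those of principal transcripts 1 was lower and 0 higher (4.75% and 5.86%). Leaving out each library gave 1 to 3 lower (3 without sh-NC 3) and 0 to 2 higher, where 1919 of 17265 (without sh-NC 2) to 5535 of 17379 genes (without sh-NC 1) reached it in either direction. With the trends removed as well it gave 0 to 1 lower and 0 higher, where 646 of 17477 to 4241 of 17379 genes did. Groups that did not overlap numbered 1 lower in DESeq2, with no filter and with the length trend removed, where 7.61% to 11.4% of all genes were. They numbered 0 higher with upper-quartile normalization (11.1% of all genes), in limma (6.27% to 13.4%) and in the fits on all 6 libraries with the GC and length trends removed (7.52% to 8.45%).

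The paper describes the sequenced control and knockdown cells as 3 pairs. The deviations of libraries from their group mean, compared across genes, had r = −0.284, −0.186 and −0.0433 for numbers 1, 2 and 3. Libraries of different numbers had r from −0.258 to 0.323. With 3 libraries in each group mean and the GC trend left in, these values cannot decide whether libraries were paired. With the replicate block the median was −0.34, with 1 member lower and 1 higher at an unadjusted p below 0.05 (6.92% and 12.6% of all genes). With the block and the trends removed the median was −0.090 and SLC38A7 stood at −0.047. In that fit 0 members were lower and 0 higher at an unadjusted p below 0.05 (1.94% and 5.12% of all genes). Groups that did not overlap numbered 2 lower (6.69% of all genes) and 0 higher (8.45%). The block called 0 genes. SLC38A3 and SLC38A6, with 355 and 407 counts, had the largest standard errors of the 8. How much of these came from depth was not tested.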
